A study of Mus musculus with 2 samples.

Results

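The subject is a set of 10 genes for matricellular proteins of tissue repair: the tenascins Tnc, Tnn and Tnxb, periostin (Postn), the thrombospondins Thbs1, Thbs2 and Thbs3, Sparc, and the CCN proteins Ccn1 and Ccn2. They were chosen by name, with earlier results of these data known. All 10 were found among the 32285 genes of the deposited matrices, of which 27047 had a UMI (a counted RNA molecule) in a kept cell. They were measured in 2 single-cell RNA libraries of mouse tissue labelled Achilles tendon. The injured library came from the limb with a burn/tenotomy injury, 7 days after tenotomy, and the uninjured library from the contralateral limb. Mice of both libraries had Hoxa11 wt/CreERT2, an inducible recombinase driven in a limb lineage, together with R26 wt/LSL-rtTA and the transgene TetO-Vegfd. Vegfd, a lymphatic growth factor, can thus be overexpressed in injured and uninjured limbs alike, in cells where the recombinase has acted. The uninjured limb is labelled as contralateral in burn/tenotomy mice, so it is not tissue of untreated mice. The sample is the soft tissue behind the tibia and so holds more than tendon. The mice were male and female and 8 to 12 weeks old at the procedure, with 5 per group in the design. The sources used here do not give how many mice each library holds, or the dosing of the agents that induce the alleles. Control mice without overexpression were not analysed here.

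Matricellular proteins are secreted into the matrix around cells and bind collagens, growth factors and cell-surface receptors such as integrins, but give the matrix little mechanical strength themselves. Many are abundant in development, scarce in resting adult tissue and abundant again in wounds. Tendon is an exception for some of them, since loaded tenocytes, the resident tendon fibroblasts, keep making Tnc and Ccn2.

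The stretches of 250 bases before the transcription start are shown for 4 of the genes, those whose stretch held letters marked below. Of these, Tnn, Tnc and Postn were higher in injured mesenchymal cells and Ccn1 was within 2-fold there. Thbs2 was also higher there, and Thbs3 and Sparc were within 2-fold, but their stretches held no such letters and are not shown. They come from RefSeq on GRCm38.p6, the patch release of the mm10 build that the files use, and are written 5′ to 3′ on the gene's strand. Capitals mark TATAAA on the gene's strand (the letters of a TATA box, whatever their distance from the start) and GGAATG on either strand (the letters bound by TEAD factors, the DNA-binding partners of the mechanically regulated YAP protein).

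Tnn (chr1:160153576-160153825, minus strand): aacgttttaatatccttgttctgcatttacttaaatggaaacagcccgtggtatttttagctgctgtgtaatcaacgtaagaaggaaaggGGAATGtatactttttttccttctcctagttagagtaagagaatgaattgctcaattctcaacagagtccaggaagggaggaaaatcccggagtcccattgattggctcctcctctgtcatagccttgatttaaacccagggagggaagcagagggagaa
Tnc (chr4:64047016-64047265, minus strand): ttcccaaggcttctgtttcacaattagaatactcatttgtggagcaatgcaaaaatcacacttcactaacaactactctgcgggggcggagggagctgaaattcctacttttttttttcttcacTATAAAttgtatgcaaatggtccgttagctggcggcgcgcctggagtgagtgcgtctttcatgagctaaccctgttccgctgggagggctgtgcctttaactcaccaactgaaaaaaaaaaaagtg
Postn (chr3:54360857-54361106, plus strand): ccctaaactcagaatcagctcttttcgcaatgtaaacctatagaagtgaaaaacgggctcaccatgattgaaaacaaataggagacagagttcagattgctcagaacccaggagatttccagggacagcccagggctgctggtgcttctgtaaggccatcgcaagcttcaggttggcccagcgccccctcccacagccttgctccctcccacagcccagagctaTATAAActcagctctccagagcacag
Ccn1 (chr3:145649986-145650235, minus strand): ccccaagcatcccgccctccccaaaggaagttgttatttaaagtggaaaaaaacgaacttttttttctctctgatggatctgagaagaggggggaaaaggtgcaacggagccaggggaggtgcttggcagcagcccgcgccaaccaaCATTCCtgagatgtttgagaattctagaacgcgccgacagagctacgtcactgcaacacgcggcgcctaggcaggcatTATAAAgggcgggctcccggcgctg

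GGAATG lay in the Tnn stretch, starting 160 bases before the start, and in the Ccn1 stretch, starting 103 bases before it, there as its reverse complement. TATAAA lay 25 bases before the Ccn1 start, 26 before the Postn start and 126 before the Tnc start. Among the 8 genes with an entry, 2 held GGAATG, 3 held TATAAA, and 1, Tnxb, held TGANTCA on either strand, the letters bound by AP-1. Over all 32851 RefSeq windows of the same length the shares were 12.6%, 7.59% and 6.75%. Tnc and Postn each have another RefSeq start, for which TATAAA lay 205 bases before the start in Tnc and was not in the window in Postn. The motifs did not overlap each other, and a match is a description of letters, not of binding.

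The injured library held 10691 barcodes and 253050820 UMIs, and the uninjured library 6850 barcodes and 101685524 UMIs, against an aim of 2000 to 6000 cells per channel in the labels' protocol. After filtering, 9171 injured cells (85.8%, median 17492 UMIs) and 4695 uninjured cells (68.5%, median 15730 UMIs) were kept. More than 10% mitochondrial UMIs were found in 7.49% of the injured library's barcodes and 26.4% of the uninjured library's. Vegfd itself was at 94.9 CPM (the gene's UMIs per total UMIs of those cells, scaled to counts per 1e6) in injured and 23.6 CPM in uninjured cells. The immediate early and heat shock genes, 15 genes that respond within minutes to stress and to tissue digestion, summed to 5388 CPM in injured and 7833 CPM in uninjured cells. The libraries shared 19 barcodes, of which 8 were kept in both. Each class below was named from marker genes, so a name means cells like that type. Mesenchymal cells numbered 2347 injured and 1335 uninjured and had no tenocyte marker at 0 in either library, although the tenocyte cluster itself held 22 injured and 376 uninjured cells. With 1 library per group no difference can be tested. Every interval given is exact, at 95%, and holds the error of counting alone, not the spread between mice.

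Over all kept cells, 5 of the 10 genes were over 2-fold higher in the injured library, on log2(CPM + 5), and 2 were over 2-fold lower. Of all 10198 genes at 10 CPM or more in a library, 4.97% were over 2-fold higher and 6.55% over 2-fold lower. Tnc, Tnn, Postn, Thbs1 and Thbs2 were the 5 higher genes, Tnxb and Ccn2 the 2 lower ones, and Thbs3, Sparc and Ccn1 lay within 2-fold. In mesenchymal cells 4 genes were higher and 2 lower, against 4.32% and 6.68% of all genes there, since Thbs1 lay within 2-fold. In pericyte or smooth muscle cells, the contractile cells of the vessel wall, 4 were higher and 0 lower, against 7.35% and 5.97%. Different clusters held most of that class, the pericyte cluster 405 of 460 injured cells and the smooth muscle cluster (99) and a small pericyte cluster (37) most of the 216 uninjured ones. Within the pericyte cluster (405 injured and 80 uninjured cells) the counts were 2 higher and 1 lower, against 7.1% and 6.66%: Postn and Tnn (51 and 0 UMIs) were higher and Tnxb lower (ratio 0.404), while Tnc, Thbs2 and Sparc had ratios of 1.82, 1.57 and 1.62. Tnn stood at only 5.34 CPM in injured cells of that cluster, so it is not among the genes behind those shares. It was at 2.38 CPM in injured lymphocytes and dendritic cells. In vascular endothelial cells 4 were higher and 0 lower, against 4.1% and 4.34%, and in mononuclear phagocytes (macrophages and monocytes) 4 were higher and 1 lower, against 3.47% and 4.54%. The genes at 10 CPM or more in a library numbered 10 in all cells and in mesenchymal cells, 9 in pericyte or smooth muscle cells, and 7 each in vascular endothelial cells and phagocytes. Vascular endothelial cells also lay in different clusters: the one led by Timp4 and Cd36 held 97 injured and 1048 uninjured cells, and the one led by Plvap and Magi1 held 529 and 172. The higher calls in vascular endothelial cells and phagocytes are set beside the level in lymphocytes and dendritic cells further on.

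**Figure D1:**
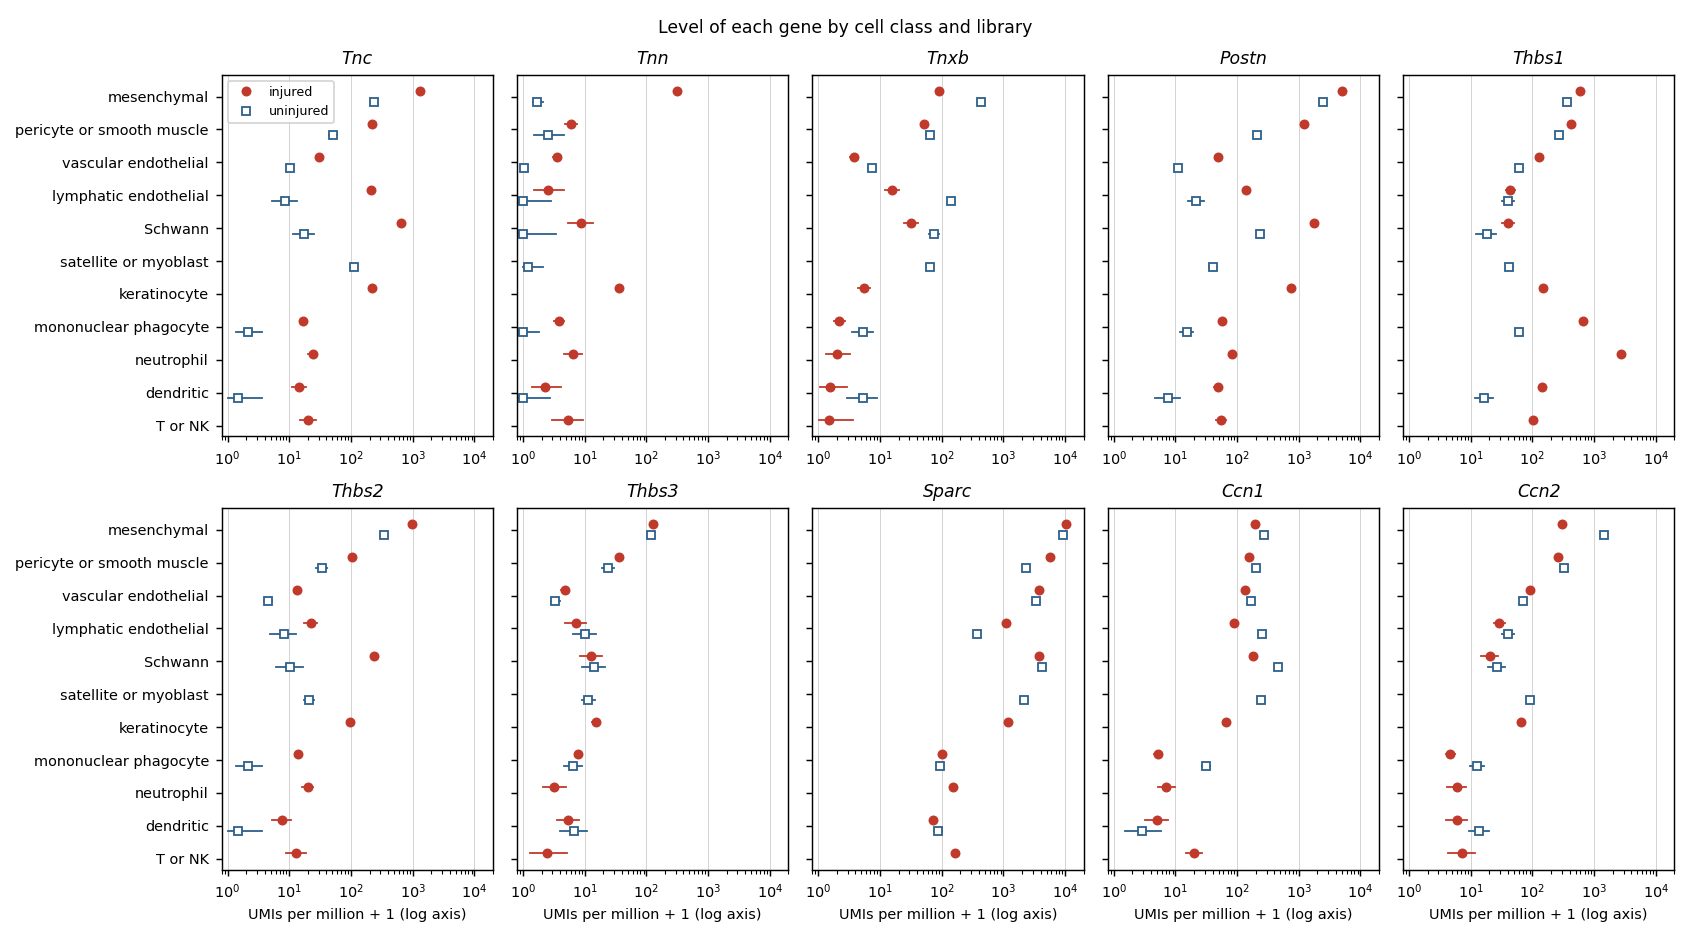
Level of each of the 10 genes (panels) in every class with 50 or more cells in a library. The horizontal log axis is CPM plus 1, red circles are the injured and open blue squares the uninjured library, and lines are exact Poisson 95% intervals. Tnn stands at 315 CPM in injured mesenchymal cells against 0.714 CPM in uninjured ones, while Thbs1 is highest in injured neutrophils.

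Tnc (chr4:63959785-64047015, GRCm38), tenascin-C, a six-armed glycoprotein of wounds and tendon that loosens cell adhesion, had 151515 UMIs in injured and 7724 in uninjured cells. That is 632 CPM against 87.5 CPM, a ratio of 7.23 (7.07 to 7.40). In mesenchymal cells it stood at 1290.3 CPM in the injured and 235 CPM in the uninjured library (log2 ratio 2.43). The largest ratio by class was outside the mesenchyme: Schwann cells, the glia of peripheral nerve, had 657 CPM (1271 UMIs) in the injured and 16.5 CPM (25 UMIs) in the uninjured library, a ratio of 39.8 (26.9 to 61.8). Lymphatic endothelial cells had 209.8 CPM and 7.63 CPM. Pericyte or smooth muscle cells had 214 CPM and 49.9 CPM, and the pericyte cluster alone 227 CPM and 125 CPM. In the injured library the order ran from mesenchymal to Schwann cells, then keratinocytes, pericyte or smooth muscle and lymphatic endothelial cells, whose neighbouring intervals overlap. In the uninjured library satellite or myoblast cells, the muscle stem cells, came next after mesenchymal cells at 110.1 CPM. In the Schwann cluster of 70 injured and 49 uninjured cells it was at 748 CPM and 36.9 CPM. An antisense transcript overlaps Tnc, and the sources used here do not say whether counting used strand.

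Tnn (chr1:160085029-160153580), tenascin-N or tenascin-W, a relative of Tnc known from developing bone and from tumour stroma, was close to absent from the uninjured library. It had 35563 UMIs in injured cells and 29 in uninjured cells, or 148 CPM and 0.328 CPM. Mesenchymal cells held 97.5% of the injured UMIs, at 315 CPM in the injured and 0.714 CPM (20 UMIs) in the uninjured library, a ratio of 441 (286 to 722). Among 9468 genes ranked by log2 ratio in mesenchymal cells, Tnn was rank 2 from the highest. Keratinocytes, found only in the injured library, had 35.6 CPM, and the other injured classes of 50 or more cells lay between 1.31 and 7.75 CPM. In the uninjured library 4 of the 8 classes of 50 or more cells had 0 Tnn UMIs.

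Tnxb (chr17:34670535-34719815), tenascin-X, which spaces collagen fibrils in loose connective tissue and whose loss in humans gives a form of Ehlers-Danlos syndrome, went the other way. It stood at 45.4 CPM in injured and 155 CPM in uninjured cells, and in mesenchymal cells at 89.1 CPM and 439 CPM, a ratio of 0.203 (0.197 to 0.208). Lymphatic endothelial cells showed a ratio of 0.106 (0.0763 to 0.144), from 14.8 CPM (48 UMIs) in the injured and 139 CPM (274 UMIs) in the uninjured library. That class was the second highest for Tnxb in the uninjured library and the fourth in the injured one. Schwann cells had 31.0 CPM and 74.6 CPM, and pericyte or smooth muscle cells 51.3 CPM and 62.7 CPM. A pseudogene and a small nuclear RNA gene overlap Tnxb on the other strand.

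Postn (chr3:54361109-54391037), periostin, which binds collagen and promotes its cross-linking, had 583919 UMIs in injured and 71765 in uninjured cells, or 2437 CPM and 813 CPM. In mesenchymal cells the ratio was 2.02 (2.00 to 2.04), from 4972 CPM in the injured and 2459.7 CPM in the uninjured library, so it lay just past the 2-fold limit there. Outside the mesenchyme the ratios were larger. Pericyte or smooth muscle cells had 1199.7 CPM against 206 CPM (ratio 5.83, 5.39 to 6.32) and Schwann cells 1769.7 CPM against 238 CPM (ratio 7.45, 6.68 to 8.33). Activated fibroblast markers moved the same way in the pericyte or smooth muscle class: the list of 11, none at 0 in either library, summed to 8385 CPM in injured and 3568 CPM in uninjured cells, and their part in the Postn result was not tested. Within the pericyte cluster alone Postn was at 1336 CPM and 483 CPM.

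Thbs1 (chr2:118111876-118127133), thrombospondin-1, which activates latent TGF-beta and blocks vessel growth through CD36 and CD47, was found in leukocytes as well as mesenchyme. Mesenchymal cells held 53.0% of its UMIs in the injured and 69.2% in the uninjured library, whereas for Tnc, Postn and Thbs2 they held 85.2% to 96.0% in both. Injured neutrophils, short-lived cells of acute inflammation, had 2718 CPM in 1000 cells, and 79.8% of them held a Thbs1 UMI at a median of 3978 UMIs per cell. The monocyte cluster (290 injured cells) had 2789 CPM, the MHC class II cluster (1056 injured and 120 uninjured cells, left unnamed) 820 CPM against 182 CPM, and the macrophage cluster with cells of both libraries (464 injured and 247 uninjured cells) 126 CPM against 17.1 CPM. Over the phagocyte class Thbs1 was at 657 CPM in the injured and 59.1 CPM in the uninjured library, a ratio of 11.1 (9.86 to 12.6), and rank 9 from the highest of 8782 genes. Different clusters hold most of that class in the 2 libraries: the monocyte cluster and a macrophage cluster of 935 injured and 12 uninjured cells in the injured library, the shared macrophage cluster in the uninjured one. Smooth muscle cells had 1123 CPM and 311 CPM (50 injured and 99 uninjured cells). A long noncoding RNA overlaps Thbs1 on the other strand.

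**Figure D2:**
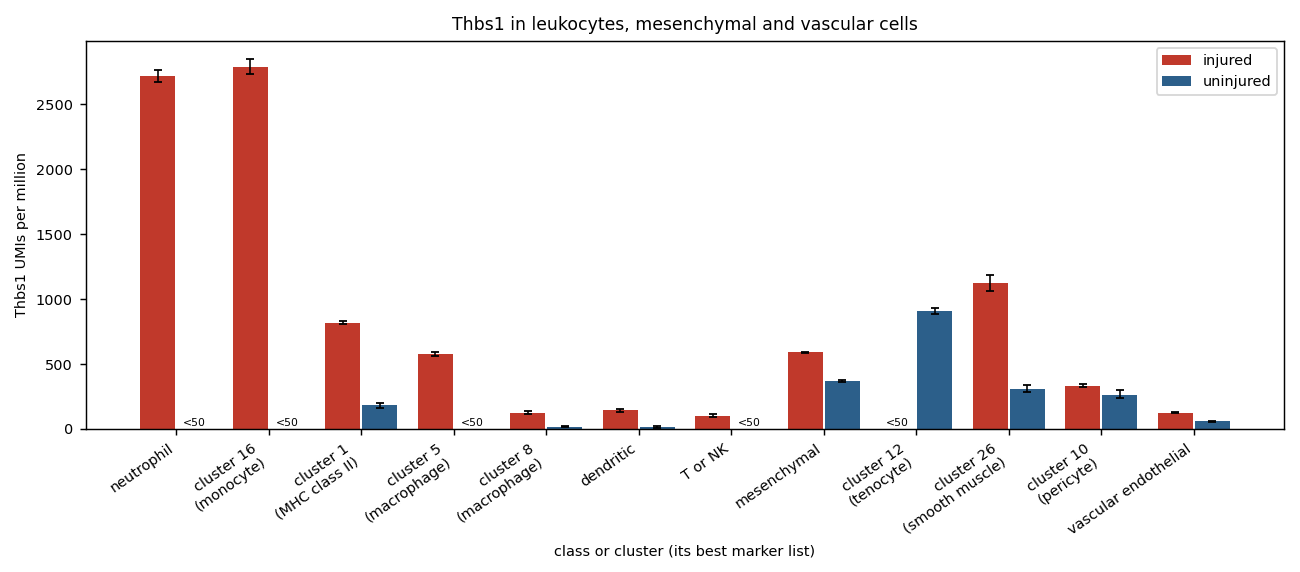
Thbs1 level in CPM in classes and clusters, with the injured library in red on the left and the uninjured library in blue on the right of each position. Error bars are exact Poisson 95% intervals, and <50 marks a library with fewer than 50 cells there. Neutrophils and the monocyte cluster, both of the injured library, stand at 2718 and 2789 CPM, and the uninjured tenocyte cluster at 909 CPM is above the mesenchymal class as a whole.

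Thbs2 (chr17:14665500-14694235), thrombospondin-2, a regulator of collagen fibril size made mainly by fibroblasts, had 462 CPM in injured and 113 CPM in uninjured cells. In mesenchymal cells it was at 964 CPM and 337 CPM, a ratio of 2.86 (2.80 to 2.92). Schwann cells again showed a larger ratio, 25.3 (14.9 to 46.6), from 234 CPM (452 UMIs) in the injured and 9.24 CPM (14 UMIs) in the uninjured library. Thbs3 (chr3:89215180-89226837), thrombospondin-3, a pentameric family member of cartilage and muscle, was at 63.0 CPM and 41.9 CPM over all cells and at 127 CPM and 119.5 CPM in mesenchymal cells, within 2-fold in both. The coding gene Mtx1 overlaps Thbs3 on the other strand, so without knowing the strand setting their reads cannot be told apart.

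Sparc (chr11:55394500-55423183), osteonectin, which binds collagen and guides its assembly, was detected in nearly every mesenchymal cell of both libraries. It stood at 10317 CPM in injured and 9246 CPM in uninjured mesenchymal cells (log2 ratio 0.16) and at 3721 CPM and 3335 CPM in vascular endothelial cells. Larger ratios were seen in lymphatic endothelial cells, at 1112 CPM and 369 CPM (3.02, 2.78 to 3.27), and in pericyte or smooth muscle cells, at 5657 CPM and 2331 CPM (2.43, 2.37 to 2.49). Within the pericyte cluster alone Sparc was at 5924 CPM and 3662 CPM, a ratio of 1.62 (1.57 to 1.67), within 2-fold. In Schwann cells it was at 3738 CPM and 4281 CPM.

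Ccn1 (chr3:145646976-145649981), or Cyr61, and Ccn2 (chr10:24595442-24598683), or CTGF, are integrin ligands and standard targets of YAP and TEAD, and Ccn1 is also an immediate early gene. Ccn2 stood at 171 CPM in injured and 514 CPM in uninjured cells, and in mesenchymal cells at 299 CPM and 1456 CPM, a ratio of 0.205 (0.202 to 0.208). In vascular endothelial cells it was at 91.7 CPM and 68.7 CPM over the class (ratio 1.34), but the ratio was 0.883, 0.812 and 0.563 within the 3 clusters with the most cells there. Ccn2 had a ratio of 1.20 (0.845 to 1.69) in the cluster led by Cldn5 and Stmn2 (65 injured and 176 uninjured cells). It had one of 1.30 (1.12 to 1.52) in a cycling vascular cluster (129 injured and 62 uninjured cells). In pericyte or smooth muscle cells it was at 258 CPM and 329 CPM (ratio 0.784), and within the pericyte cluster at 181 CPM and 228 CPM. In the smooth muscle cluster it was higher, at 904 CPM and 433 CPM, a ratio of 2.09 (1.90 to 2.30). Ccn1 was at 131 CPM in injured and 208 CPM in uninjured cells. Its ratio was 0.350 (0.302 to 0.406) in lymphatic endothelial cells, from 88.0 CPM and 251 CPM, and 0.394 (0.346 to 0.450) in Schwann cells, from 179 CPM and 453 CPM. In phagocytes it was at 4.22 CPM (113 UMIs) and 30.6 CPM (138 UMIs). The immediate early and heat shock list was also lower there, summed to 2773 CPM and 6674 CPM in lymphatic endothelial cells and 8767 CPM and 13396 CPM in phagocytes. Of its 15 genes, 13 were over 2-fold lower in lymphatic endothelial cells and 3 in phagocytes, and 0 were over 2-fold higher in either. Over all genes in lymphatic endothelial cells, 10.5% were over 2-fold higher and 10.3% lower. Its part in the Ccn1 result was not tested. A noncoding transcript overlaps Ccn2 on the other strand.

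**Figure D3:**
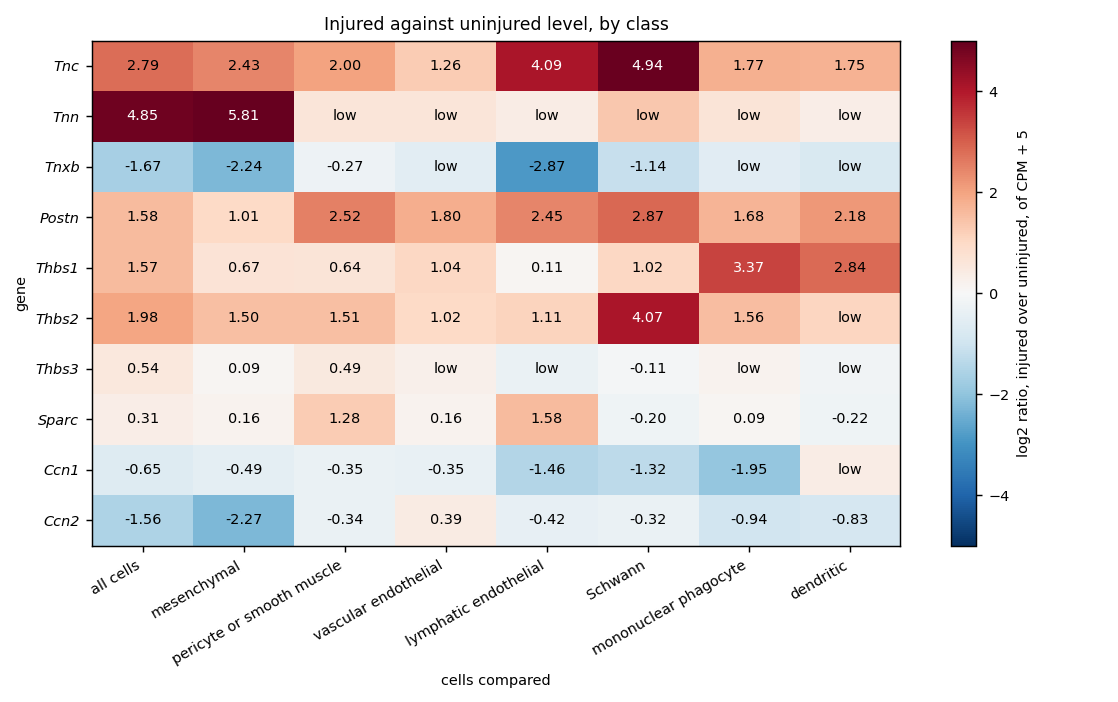
Log2 ratio, injured over uninjured, of CPM + 5 for each gene (rows) in all cells and in 7 named classes (columns; at least 50 cells per library). Red is higher and blue lower in the injured library, and "low" marks a gene under 10 CPM in both. Postn is above 1 in every column, Tnxb is below 0 wherever it reached 10 CPM, and Sparc lies within 0.5 of 0 except over 1 in pericyte or smooth muscle and lymphatic endothelial cells.

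The mesenchymal class was made of clusters that belonged largely to one library each, and the genes were spread unevenly over them. The genes were left out of clustering and naming. The cluster led by C1qtnf3 and Cthrc1 (1139 injured and 8 uninjured cells), named by the activated fibroblast list, had Tnc at 1818 CPM, Tnn at 476 CPM and Tnxb at 2.23 CPM. A cycling cluster of the same name (227 injured and 7 uninjured cells) had Tnc at 1814 CPM and Tnn at 393 CPM. The cluster led by Sfrp2 and Col14a1 (794 injured and 4 uninjured cells) had Tnc at 221 CPM, Tnn at 25.4 CPM and Tnxb at 248 CPM, with Postn at 4635 CPM. Tnxb was thus near absent from the clusters with the most Tnc and Tnn, while the Sfrp2 and Col14a1 cluster held both Tnc and Tnxb.

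The cluster led by Gsn and Clec3b (90 injured and 690 uninjured cells), named by the fibroblast list, held cells of both libraries and differed from the class as a whole. Tnxb was at 607 CPM (576 to 640) in its injured and 680.0 CPM (667 to 693) in its uninjured cells, against a 0.203 ratio over the class. Tnc was at 22.9 CPM and 96.0 CPM, a ratio of 0.239 (0.177 to 0.315), opposite in direction to the class. Postn was at 1425 CPM and 2214 CPM, also opposite. Thbs2 was at 608 CPM and 295 CPM and Ccn2 at 202 CPM and 645 CPM, both in the direction of the class. Of the 10 genes 1 was over 2-fold higher and 2 were over 2-fold lower in this cluster, against 2.71% and 2.23% of all genes there. The cluster led by Apod and Gpc3 (68 injured and 58 uninjured cells, fibroblast list) also held both libraries. Tnc was there at 138 CPM and 0 CPM, Tnn at 58.5 CPM and 0 CPM and Postn at 782 CPM and 8.09 CPM. These, Thbs2 (ratio 2.73), Thbs3 (2.58) and Tnxb (0.438) went with the class. Thbs1 (0.393), Sparc (0.382), Ccn1 (4.57) and Ccn2 (1.22, 0.788 to 1.95) went the other way. There 6 genes were over 2-fold higher and 3 lower, against 20.5% and 6.39% of all genes.

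Tenocytes set much of the uninjured mesenchymal level of some genes. The uninjured tenocyte cluster (376 cells) had Ccn2 at 3352 CPM, Thbs1 at 909 CPM, Ccn1 at 552 CPM, Tnc at 412 CPM and Postn at 3169 CPM, and its 22 injured cells were too few to compare. With that cluster left out, an alternative chosen after seeing the data, 2325 injured and 959 uninjured mesenchymal cells remained. Ccn2 was then at 294 CPM and 605 CPM, a ratio of 0.486 (0.476 to 0.496) in place of 0.205. Ccn1 turned round, to 193 CPM and 151 CPM, a ratio of 1.28 (1.23 to 1.33) in place of 0.706, so its direction rests on the tenocyte cluster. Thbs1 was at 591 CPM and 125 CPM, a ratio of 4.72 (4.53 to 4.92) in place of 1.604. Tnc, Postn and Thbs2 had ratios of 8.30, 2.33 and 3.65 without tenocytes.

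**Figure D4:**
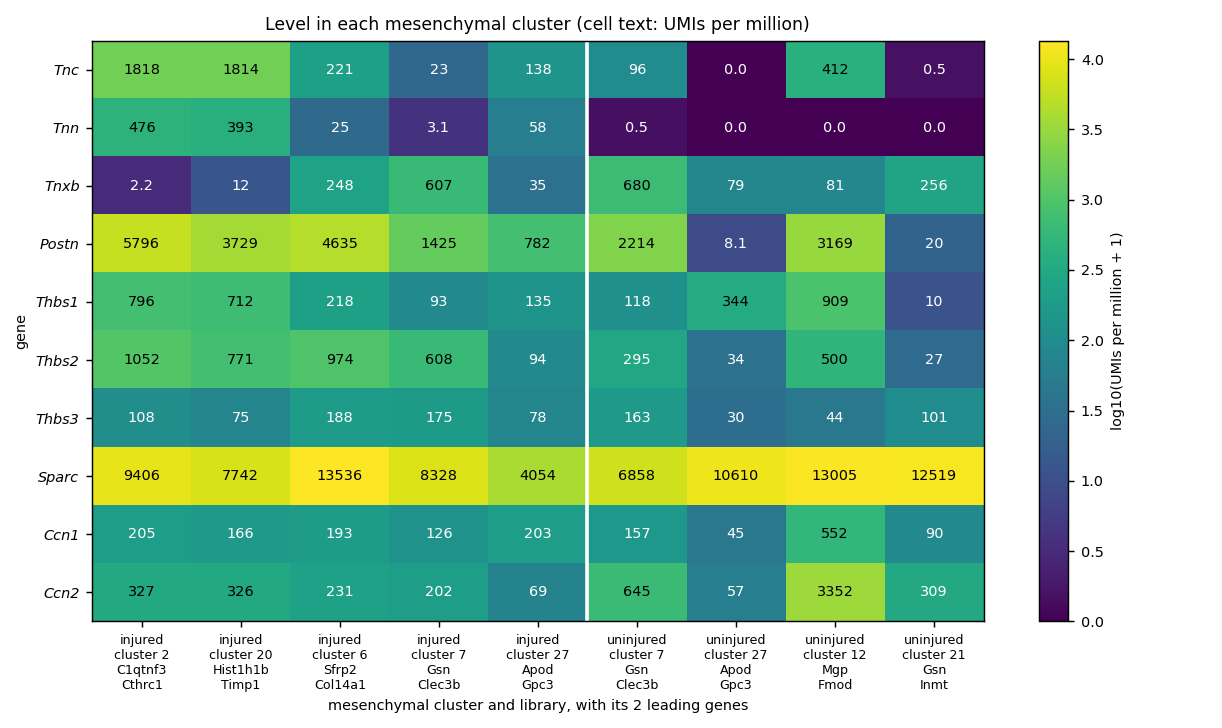
Level in CPM of each gene (rows) in the mesenchymal clusters with at least 50 cells of the library (columns, injured left of the white line and uninjured right of it), with the leading genes of each cluster. Colour is log10(CPM + 1). Tnc and Tnn peak in injured clusters 2 and 20, Tnxb in cluster 7 of both libraries, and Ccn2 in uninjured cluster 12, the tenocytes.

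Shares of mesenchymal cells with a UMI were compared after thinning each cell to 2000 UMIs, because injured mesenchymal cells were deeper (median 44890.0 UMIs) than uninjured ones (median 19182 UMIs). A total of 2307 injured and 1294 uninjured cells were deep enough. Tnc was found in 54.4% (52.3 to 56.4) of injured and 13.2% (11.4 to 15.2) of uninjured cells, Thbs2 in 69.1% and 31.3%, and Postn in 89.6% and 50.9%. Tnn was found in 27.7% (25.8 to 29.5) of injured and 0 of 1294 uninjured cells, which allows up to 0.285% there by the exact interval. Tnxb was found in 14.0% and 41.7%, and Ccn2 in 26.1% and 46.1%. Ccn1 was found in 28.2% and 28.7%. Without thinning Tnc was found in 81.0% and 28.6% and Ccn2 in 66.6% and 65.7%. The comparison class that should lack these genes, Thbs1 aside, was lymphocytes and dendritic cells together. It had Tnc in 2.59% of injured and 0.694% of uninjured thinned cells and Tnxb in 0% and 0.694%. Postn was found there in 12.3% and 2.78%, Sparc in 16.6% and 9.03%, Thbs1 in 9.29% and 4.86%, and Ccn2 in 0% and 1.39%, at median depths before thinning of 11316 and 16286 UMIs per cell.

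**Figure D5:**
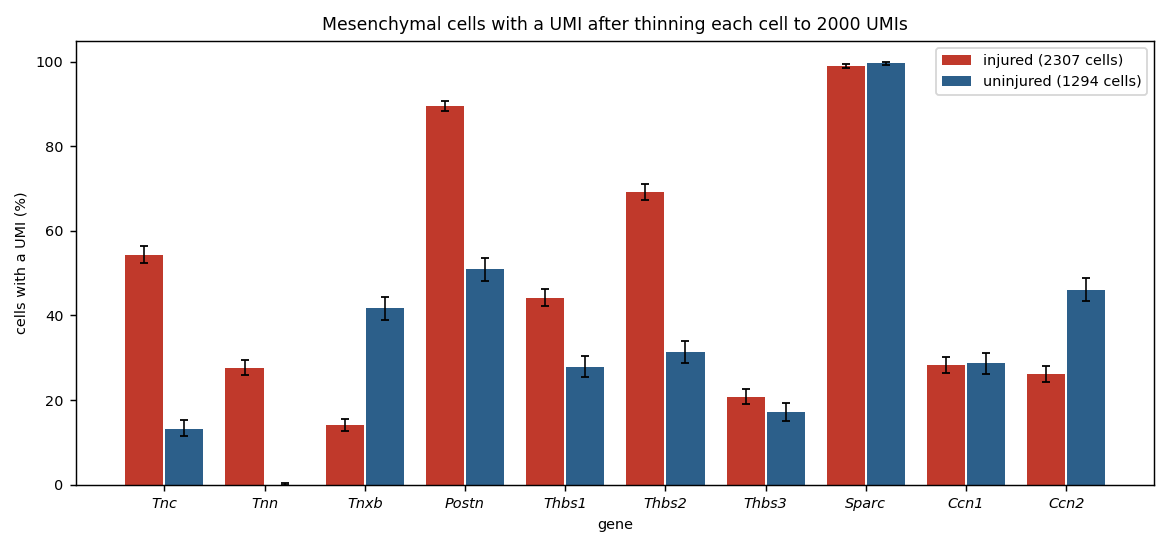
Percent of mesenchymal cells with at least 1 UMI of each gene after thinning every cell to 2000 UMIs, with the injured library (2307 cells, red) left of the uninjured library (1294 cells, blue). Error bars are exact 95% binomial intervals. Tnn is at 27.7% against 0%, Tnxb and Ccn2 are lower in the injured library, and Sparc is near 100% in both.

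Among mesenchymal cells of the injured library thinned to 5000 UMIs (2253 cells), Tnn was found in 56.4% of cells with Tnc and in 9.10% of cells without it (Spearman rho 0.49). Tnxb was found in 7.84% of cells with Tnc and in 51.1% of cells without it (rho -0.48). In the uninjured library (1208 cells) Tnxb was likewise found in 24.3% of cells with Tnc and 69.8% without (rho -0.36), and Ccn2 in 80.8% of cells with Thbs1 and 40.5% without (rho 0.58). These describe cells that share a library and its clusters and are not replicates.

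Free RNA was read from lymphocytes and dendritic cells (474 injured and 144 uninjured), which do not make fibrillar collagen. In them Col1a1, the chain of type I collagen, stood at 0.849% of its mesenchymal level in the injured and 0.503% in the uninjured library. Tnc, Tnn, Postn, Thbs2 and Sparc stood at 0.756% to 1.20% of their mesenchymal level in the injured library. Thbs1 stood at 21.8% there, at 128 CPM, and at 3.91% in the uninjured library, at 14.4 CPM. Its 128 CPM is not taken as a level of free RNA, since injured Schwann cells had 39.8 CPM (31.4 to 49.7) and lymphatic endothelial cells 42.8 CPM (36.0 to 50.5). In injured phagocytes Tnc was at 15.8 CPM against 15.5 CPM in lymphocytes and dendritic cells, Postn at 56.5 CPM against 49.7 CPM, Thbs2 at 12.96 CPM against 8.51 CPM and Sparc at 99.0 CPM against 104 CPM. These levels are at or near that of free RNA. Thbs1, at 657 CPM over the class, was above its 128 CPM in lymphocytes and dendritic cells, but in the macrophage cluster with cells of both libraries it was at 126 CPM. In injured vascular endothelial cells Postn was at 48.1 CPM, against 49.7 CPM in lymphocytes and dendritic cells. Tnc was there at 29.5 CPM against 15.5 CPM, and Thbs2 at 12.2 CPM against 8.51 CPM. Sparc, Ccn1 and Ccn2 were further above that level, at 3721, 132 and 91.7 CPM, against 104, 9.36 and 5.45 CPM. Thbs1, at 126 CPM over the vascular endothelial class, had ratios of 0.515, 0.921 and 1.33 within its 3 clusters with the most cells, all within 2-fold. It had a ratio of 1.65 in the cycling vascular cluster. In the vascular cluster led by Cldn5 and Stmn2 Thbs1 was higher, at 51.1 CPM (85 UMIs) in injured and 8.33 CPM (27 UMIs) in uninjured cells. That is a ratio of 6.14 (3.94 to 9.85). With the level of lymphocytes and dendritic cells subtracted, for Thbs1 too, the count over 2-fold higher went to 1 (Thbs1) in phagocytes and to 0 in vascular endothelial cells, and it stayed at 4 in mesenchymal and in pericyte or smooth muscle cells.

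The injured library also held more mesenchymal RNA, at 45.9% of all UMIs against 31.7% in the uninjured library. With injured class levels weighted by the uninjured library's share of UMIs per class, the ratios over all cells were 5.21 for Tnc (7.23 as measured), 2.11 for Postn (2.999), 2.11 for Thbs1 (3.03), 2.88 for Thbs2 (4.09), 0.222 for Tnxb (0.293) and 0.277 for Ccn2 (0.333). Macrophage and monocyte markers were also higher in injured mesenchymal cells, with the 10 macrophage genes at 128 CPM and 22.1 CPM and the 8 monocyte genes at 302 CPM and 41.0 CPM, none at 0 in either library. Their part in the Thbs1 level there was not tested. The libraries hold cells of both sexes. In 3572 injured and 2410 uninjured cells with only Xist detected, Tnc was at 563 CPM and 89.8 CPM. In 3490 injured and 1515 uninjured cells with only Y-linked genes detected, it was at 675 CPM and 93.4 CPM. In all cells the 5 higher and 2 lower genes were past 2-fold in the same direction in both sets.

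The wider matricellular genes moved in both directions. For this list and those of the next paragraph, the share of all genes past 2-fold was not computed at the lists' limit of 50 UMIs. Among genes at 10 CPM or more in a library, a different limit, 4.97% were over 2-fold higher and 6.55% lower over all cells. In mesenchymal cells the shares at that different limit were 4.32% and 6.68%. Of 19 listed, 5 were over 2-fold higher and 5 lower over all cells, and of the 18 with 50 or more UMIs in mesenchymal cells 2 were higher and 6 lower, with a median log2 ratio of -0.37 against -0.02 over all genes tested. Spp1 (osteopontin) was at 399 CPM in injured and 77.6 CPM in uninjured cells, and Ccn5 at 64.4 CPM and 10.1 CPM. In mesenchymal cells Smoc1 was at 44.1 CPM and 6.64 CPM, while Sparcl1, the closest relative of Sparc (hevin), was at 36.0 CPM and 683 CPM, and Fbln7 at 17.7 CPM and 101 CPM. Thbs4, the tendon and muscle thrombospondin, was at 807 CPM and 2449 CPM there, and was picked out after its values were seen.

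The matrix partners, collagens and the proteins that bind and cross-link them, had 6 of 13 genes over 2-fold higher and 0 lower over all cells, and 2 higher and 1 lower in mesenchymal cells. There Lox (lysyl oxidase, a collagen cross-linker) was at 846 CPM in injured and 281 CPM in uninjured cells and Col5a1 at 1810.0 CPM and 897 CPM, while Dcn (decorin) was at 3385 CPM and 8633 CPM. Of 23 receptors none was over 2-fold higher in mesenchymal cells and 6 were lower, among them Itga8 (1.4997 CPM and 28.5 CPM) and Itga4 (1.85 CPM and 22.3 CPM). Cd36, a thrombospondin receptor of capillaries, was at 223 CPM and 1203 CPM over all cells. Vascular endothelial cells held 16.3% of injured and 34.7% of uninjured UMIs. Within that class Cd36 was at 868 CPM and 2662 CPM, a ratio of 0.326. Of 15 YAP and TEAD genes, Ccn1 and Ccn2 left out, 1 was higher (Tead2, 17.8 CPM and 6.14 CPM) and 1 lower (Axl, 99.9 CPM and 387 CPM) in mesenchymal cells, with a median of -0.06. Ankrd1, another YAP target, was at 6.19 CPM and 1.36 CPM (log2 ratio 0.82). Amotl1 was at 59.6 CPM and 121 CPM (log2 ratio -0.97), so both lay within 2-fold. Of 11 TGF-beta response genes 1 was higher and 0 lower in mesenchymal cells, the higher one being Ltbp2 at 77.2 CPM in injured and 35.6 CPM in uninjured cells.

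Across the 18 class-by-library units of 50 or more cells, the genes most like each member by Pearson r of log2(CPM + 5), among 7989 genes, were in part other members. Thbs2 was the gene most like Tnc (r = 0.93, followed by Morf4l2 and Dclk1), and Dclk1, Postn and Gpr153 were those most like Thbs2 (0.95 to 0.98). Postn was most like Has2 (0.96), Col1a2 and Thbs2. Tnn was most like Cxcl5 (0.98), Brinp3 and Lrrc15, Tnxb like Klhl13 (0.93), Igfbp5 and Prelp, and Sparc like Serpinh1 (0.97), Tmed1 and Fkbp9. Thbs1 was most like Gm13986 (0.86), Hp and Irak3, Thbs3 like Scarf2 (0.96), Loxl3 and C1ra, Ccn1 like Tcaf1 (0.97), Cuedc1 and Clstn1, and Ccn2 like Tmem100 (0.95), Nrep and Gstm2. Between members r ran from -0.24 (Thbs1 and Ccn1) to 0.96 (Postn and Thbs2). These units share 2 libraries and differ in depth, so r is a description.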

How the data were processed

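The values deposited by the authors are unnormalized UMI counts for every barcode and gene, going by the file headers and the whole numbers they hold. The submitters' processing notes name Cell Ranger 5.0.1 and the build mm10. The sources used here name neither the annotation nor the strand setting. Cells with 500 or more detected genes, at most 10% mitochondrial UMIs and a Scrublet (scanpy 1.11.5) score of at most 0.2 were kept, which removed 195 of 9366 injured and 65 of 4760 uninjured cells as doublets. Scrublet's own thresholds marked 1 and 2. The cells were clustered together (2000 variable genes without the 10 genes, 30 components, 15 neighbours, Leiden in igraph 0.11.9 at resolution 0.8), giving 36 clusters, each named from 25 marker lists with at least 3 markers detected in 10% of its cells. UMIs were summed per class and library and scaled to CPM, with intervals from SciPy 1.17.1, and log2 ratios used a pseudocount of 5 CPM. Named genes were the 10 members, the 2 highest and 2 lowest log2 ratios of each list among genes with 50 or more UMIs in a library, in all or mesenchymal cells, and the 3 genes most like each member. A cluster with a rival list at 0.6 of its best score stayed unnamed. That ratio, the doublet score, the exclusion of haemoglobin genes from naming and the 10 CPM limit for background shares were set after the data were examined, and the members and lists were chosen with earlier results of these data known. All 10 gene IDs matched GENCODE release M21, and promoter sequences are from RefSeq, GRCm38.p6. Ratios and naming were tested on simulated data. Not all genes that the naming rule picks are reported here.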

Additional observations from a re-analysis of the deposited data

How the results depend on the processing

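Of 182 counts of genes past 2-fold under the alternatives, 161 were within 1.5 times the reported count. No gene over 2-fold lost its call in the 77 values over all cells or the 108 in mesenchymal cells, whereas 13 of 68 calls were lost in vascular endothelial, 3 of 68 in pericyte or smooth muscle and 5 of 90 in phagocyte cells. At 3-fold the counts were 3 higher and 1 lower in all cells, and 2 higher in mesenchymal, 2 in pericyte or smooth muscle and 1 in vascular endothelial cells. In mesenchymal cells Tnxb and Ccn2 stayed lower past 3-fold (log2 ratios -2.24 and -2.27). In phagocytes Thbs1, Tnc and Postn stayed higher past 3-fold (3.37, 1.77 and 1.68) and Ccn1 stayed lower (-1.95). The share of all genes past 3-fold was not computed, so the 3-fold counts have no such share beside them. In vascular endothelial cells the higher count (4 as reported) was 2 with doublets removed at 0.8% per 1000 barcodes and 1 with a pseudocount of 20 CPM or in cells with only Xist detected. With the level of lymphocytes and dendritic cells subtracted it was 0, with 1 gene lower, since Postn came to -0.032 and Thbs1 to -3.30 (log2). The Thbs1 value rests on 128 CPM in those cells, which Schwann and lymphatic endothelial cells of the same library do not reach, and is not a correction for free RNA. In phagocytes the higher count (4) was 2 with a pseudocount of 20 CPM and 1 with that level subtracted. The lower count there (1) was 3 with a pseudocount of 1 CPM. It was 2 at a 20% mitochondrial limit, at resolution 0.4 or 1.6, with the 10 genes among the variable genes, with each library clustered alone, in cells with only Xist detected, at 1.5-fold, and with the MHC class II cluster joined to the class, which was chosen after seeing the data. Beyond the constructions named, the cause was not tested. Without thinning, 3 differences in the share of cells with a UMI, injured minus uninjured, changed sign: Ccn2 in mesenchymal cells to 0.86 points, Ccn1 in vascular endothelial cells to 4.04 and Sparc in pericyte or smooth muscle cells to -0.19. Before median-of-ratios scaling, which divides by the median ratio, the median gene lay at -0.12 (log2) in mesenchymal cells. Each group is 1 library, so depth limits only the counting error and no value holds the spread between mice. No paired analysis was possible because each group has 1 library.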
